A study of Homo sapiens with 30 samples.

Results

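Complex I (NADH:ubiquinone oxidoreductase) is the entry point for electrons from NADH into the mitochondrial respiratory chain, and it pumps protons across the inner membrane as it passes those electrons to ubiquinone. Its core subunits carry the flavin, the iron-sulfur clusters and the quinone site, its accessory subunits stabilize the matrix and membrane arms, and its assembly factors build the complex and are not part of the finished enzyme. Most subunits are encoded in the nucleus under symbols that begin with NDUF, and the proton-pumping membrane core is encoded by the mitochondrial genome. Pyruvate, a main source of that NADH, reaches the mitochondrial matrix through a carrier that needs MPC1.

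The transcripts described here are all 48 protein-coding genes whose symbol starts with NDUF, out of 60675 and 58051 genes counted in an overexpression and a knockout series, and all 48 were listed in both. They comprise 37 complex I subunits, 8 NDUFAF assembly factors, NDUFA4 and its paralog NDUFA4L2, and the readthrough gene NDUFC2-KCTD14. NDUFA4 was given the name of a complex I subunit but is a subunit of complex IV (cytochrome c oxidase), so it and NDUFA4L2 are kept apart throughout. After a filter on low counts, 47 of the 48 were tested after overexpression (all but NDUFC2-KCTD14) and 46 after knockout (all but NDUFA7 and NDUFC2-KCTD14).

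RNA-seq was performed on 30 libraries of human acute myeloid leukemia (AML) lines, in 10 groups of 3. MV4-11 and Molm-14 are monocytic AML lines that carry an internal tandem duplication of FLT3 (FLT3-ITD), and THP-1 is a monocytic AML line without it. For the overexpression series, cells of MV4-11 and of Molm-14 carried either a GFP lentiviral vector with the MIR1-2 sequence behind an EF1α promoter (OE) or the empty vector (EV). For the knockout series, cells of all 3 lines carried a lentiviral CRISPR/Cas9 vector with a single guide against MPC1 (KO) or its empty vector (EV), so every library in the data came from transduced, GFP-marked cells. Each line is a single source, and whether the 3 libraries of a group came from separate infections or cultures is not given, so p-values measure only the spread between these libraries.

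The 12 overexpression libraries held 15543301 to 20939985 counts each, and the 18 knockout libraries 5339360 to 9106478. The labels were checked on the manipulated genes. MIR133A1HG, the host transcript that includes MIR1-2, had 34 to 73 counts in each OE library and 0 in each EV library, and MPC1 was lower in KO than in EV in each line (log2 fold change −1.18 in MV4-11, −1.04 in Molm-14 and −0.84 in THP-1). Myeloid markers summed to 1020 counts per 1000000 (CPM) or more in every library, whereas the summed T cell, B cell, erythroid, epithelial and fibroblast markers reached at most 2.26 CPM.

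To see where miR-1 could pair with these transcripts, the 3′ untranslated region of each gene's canonical transcript was searched for the match to its seed. The mature miRNA, from RefSeq, is shown with its seed (bases 2 to 8) in capitals.
hsa-miR-1-3p: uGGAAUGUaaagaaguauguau
Of the 48 genes, 3 held the 7-base seed match ACATTCC: NDUFA9 (2 matches), NDUFB5 and NDUFAF8. The same search found a match in 2289 of 19550 protein-coding genes (11.71%). The 4 sites are shown 5′ to 3′ on the transcript with the seed match in capitals, and each is a description of letters, not of binding.
NDUFA9 first site: tcaggaggaagACATTCCcagagttacact
NDUFA9 second site: attctccttggACATTCCtcactgaaaaat
NDUFB5 site: tgtactactgtACATTCCtaccaatggtgg
NDUFAF8 site: gcgaagatgtgACATTCCtcggtgttagat

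The level of each gene was compared between genes as reads per kilobase of canonical transcript and per 1000000 counts (RPKM). Subunits were more abundant per length than assembly factors in every group. In MV4-11 EV of the knockout series, the median RPKM was 93.9 over the 37 subunits and 18.9 over the 8 assembly factors, and in THP-1 EV these medians were 69.7 and 16.2. NDUFB9, an accessory subunit of the distal membrane arm, had the highest level in MV4-11 EV (334.8 RPKM) and in THP-1 EV (295.8 RPKM) of the knockout series, and NDUFS5, an accessory subunit facing the intermembrane space, had the highest in Molm-14 EV (302.3 RPKM). Among assembly factors NDUFAF5, which hydroxylates an arginine of NDUFS7, was lowest in all 10 groups, with 1.47 RPKM in THP-1 EV and 4.93 RPKM in Molm-14 EV. Levels per length rest on the annotated transcript. NDUFA9, an accessory subunit at the junction of the arms, was the lowest subunit of the overexpression series at 2.42 RPKM in MV4-11 EV, but its canonical transcript is annotated with 8356 bases, of which 7209 are 3′ untranslated.

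**Figure D1:**
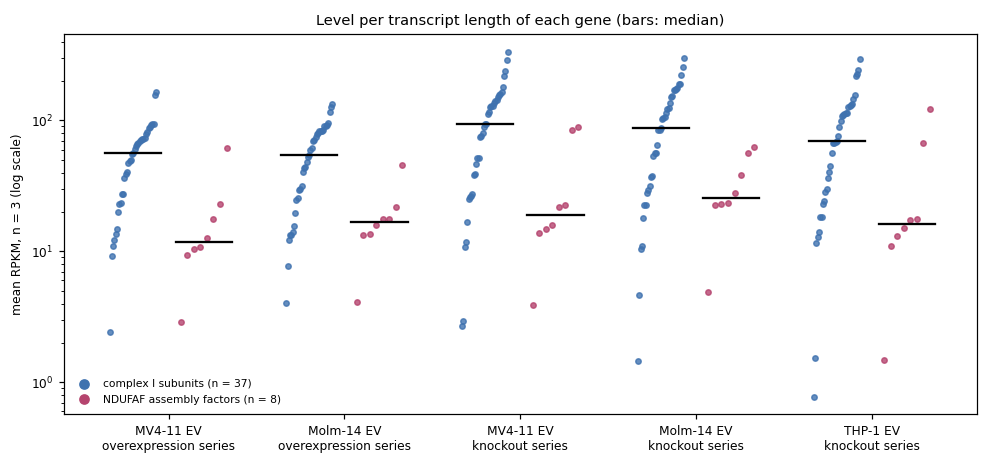
Mean RPKM of 3 libraries (log scale) for each complex I subunit (blue, 37 genes) and NDUFAF assembly factor (red, 8 genes) in the 5 EV groups, with the median as a bar. In each group the subunit bar lies above the assembly factor bar, for example 93.9 against 18.9 RPKM in MV4-11 of the knockout series.

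The 2 tables were made and scaled separately, so levels set across them are given as values only. NDUFV2, a core subunit of the NADH-oxidizing module, averaged 9.26 CPM in MV4-11 EV of the knockout series and 40.8 CPM in MV4-11 EV of the overexpression series. NDUFS5 went the other way, with 142.9 CPM and 29.8 CPM in the same groups. A noncoding gene on the same strand overlaps 28.4% of the exon bases of NDUFV2. NDUFA7, an accessory subunit of the matrix arm, had 2 to 17 counts per knockout-series library and 97 to 159 per overexpression-series library. Another protein-coding gene on the same strand overlaps 32.5% of the exon bases of NDUFA7. NDUFC2-KCTD14 was at 0 in every one of the 18 knockout-series libraries and had 1 to 10 counts in each of the others. The cause of these differences between tables was not tested.

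The first question was whether raised miR-1 changed complex I transcripts. Levels are relative to all RNA counted in a library, so less of a transcript per cell and more of all other RNA cannot be told apart. None of the 47 tested NDUF genes passed a false discovery rate (FDR) of 5% in MV4-11 OE against EV, where 0.177% of all 17542 tested genes did, and none passed in Molm-14, where 0.0057% of all genes did (edgeR quasi-likelihood test with Benjamini-Hochberg adjustment over all tested genes). At an unadjusted edgeR p under 0.05 there were 2 NDUF genes in MV4-11 (4.26%, against 5.9% of all genes) and 2 in Molm-14 (4.26% against 4.38%), and DESeq2 called 0 in both lines at FDR 5%. Of the 37 subunits, 25 were above EV and 12 below in MV4-11 (median log2 fold change 0.02), and 26 were above and 11 below in Molm-14 (median 0.03). Over all tested genes the medians were 0.01 and 0.00, and 52.5% and 49.9% were above EV. The 7 core subunits had medians of 0.04 and 0.03, and the 8 assembly factors 0.06 and 0.01.

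The measurements were precise enough to bound most of these changes. The 95% interval lay within a 1.5-fold change either way for 36 of 37 subunits in MV4-11 and for 35 of 37 in Molm-14, and within a 2-fold change for all 37 in both lines. It lay within 1.5-fold for all 8 assembly factors in each line. NDUFS1, the largest core subunit, which holds iron-sulfur clusters, had 232.1, 235.1 and 230.0 CPM in MV4-11 EV against 224.5, 246.9 and 231.8 CPM in MV4-11 OE. Its log2 fold change was 0.01 with a 95% interval of −0.09 to 0.11.

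The 3 genes with a miR-1 seed match did not pass the test in either line. NDUFA9 had 20.9, 20.8 and 18.9 CPM in MV4-11 EV and 19.9, 21.1 and 22.1 CPM in MV4-11 OE. In Molm-14 it had 32.8, 34.1 and 34.6 CPM in EV and 32.5, 28.8 and 28.1 CPM in OE. The 2 groups overlapped in MV4-11 and did not in Molm-14, where the log2 fold change was −0.18 (SE 0.08) with an edgeR adjusted p of 1. The difference between the NDUFA9 effects of the lines was 0.24, with a 95% interval of −0.001 to 0.48. For NDUFB5, an accessory subunit of the distal membrane arm, the log2 fold changes were 0.13 (MV4-11) and 0.00 (Molm-14). In MV4-11 it had 52.35, 54.5 and 47.72 CPM in EV and 56.22, 56.86 and 55.66 CPM in OE, so that all OE libraries were above all EV libraries (edgeR adjusted p 0.83). NDUFAF8, a partner of NDUFAF5, had 0.13 and 0.09.

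Other genes with the smallest p-values were NDUFV3 and NDUFS4 in Molm-14 and NDUFB11 in MV4-11. NDUFV3, an accessory subunit of the NADH-oxidizing module, was 43.6, 44.5 and 45.0 CPM in Molm-14 EV and 48.2, 51.4 and 51.2 CPM in Molm-14 OE, with no overlap (log2 fold change 0.18, edgeR adjusted p 1). NDUFS4, an accessory subunit needed to attach that module, had a log2 fold change of −0.17 in Molm-14. NDUFB11, of the distal membrane arm, had 0.12 in MV4-11. NDUFA4, the complex IV subunit, was 69.9, 70.6 and 67.8 CPM in MV4-11 EV and 72.5, 82.1 and 75.7 CPM in MV4-11 OE (log2 fold change 0.15, edgeR adjusted p 0.697), and in Molm-14 its log2 fold change was −0.03. NDUFA4L2, a low-expressed paralog, had log2 fold changes of 0.11 and −0.02, with intervals reaching beyond 0.6 either way.

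The lines were also compared directly. The difference between the MV4-11 and Molm-14 OE effects passed the test for none of the 47 NDUF genes with edgeR or with DESeq2, against 0.0456% of all genes, and 1 NDUF gene, NDUFA4, had an unadjusted p under 0.05 with edgeR (difference 0.18, SE 0.08), as did 5.3% of all genes.

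Genes that work with the nuclear subunits are given for comparison. None of the 7 complex I genes of the mitochondrial genome passed the test in either line. The median over the 7 was −0.14 (MV4-11) and 0.31 (Molm-14) on the log2 scale. Their summed level ranged from 6178 to 13430 CPM over the MV4-11 OE libraries, wider than the 8631 to 12450 CPM of the EV libraries. In Molm-14 it was 10840 to 12530 CPM in OE and 7961 to 9851 CPM in EV, with no overlap. None of 14 assembly factors with other symbols (such as ACAD9, ECSIT and TIMMDC1) and none of 9 regulators of respiratory chain genes (such as NRF1, GABPA and TFAM) passed in either line.

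**Figure D2:**
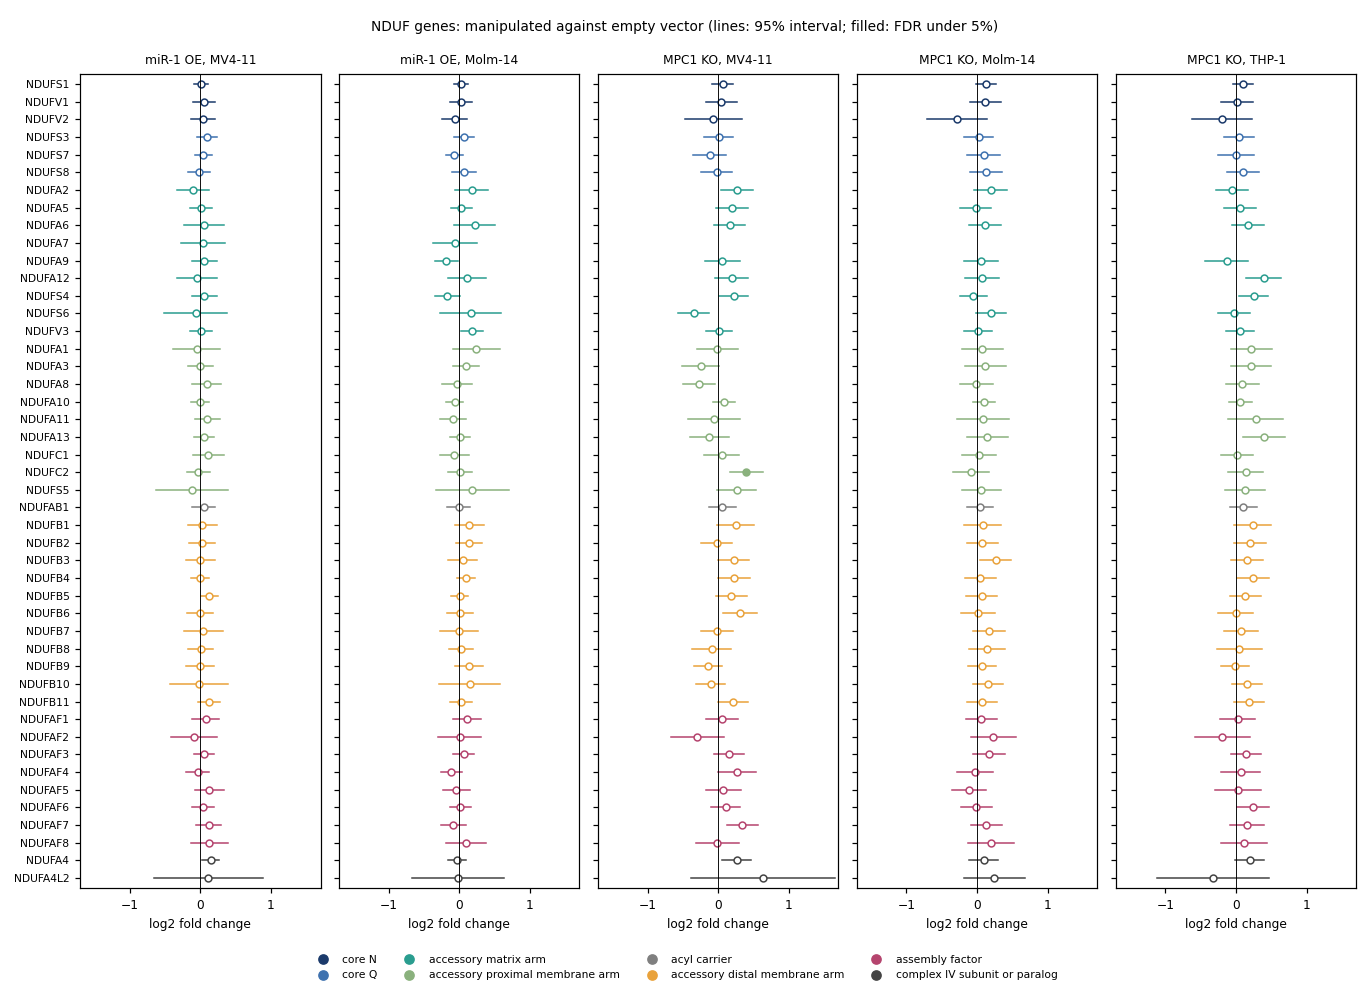
Log2 fold change of the tested NDUF genes (all but 1) against EV, with the 95% interval, in the 5 manipulated groups, colored by the arm or role of the protein. Filled points passed FDR 5%, and NDUFC2 after MPC1 knockout in MV4-11 (0.40) is the single filled point.

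The second question was whether loss of MPC1, which limits pyruvate entry, changed these transcripts. In MV4-11, 1 of the 46 tested NDUF genes passed, and it rose, against 5.41% of all 14490 tested genes (3.17% higher). It was NDUFC2 (ENSG00000151366, GRCh38 chr11:78068297-78079862, minus strand), an accessory subunit of the proximal membrane arm. NDUFC2 had 93.8, 79.3 and 76.3 CPM in the EV libraries and 128.0, 105.0 and 96.0 CPM in the KO libraries. All KO libraries were above all EV libraries, by a log2 fold change of 0.40 (SE 0.11, edgeR adjusted p 0.0422). The call was lost when EV replicate 2 (edgeR adjusted p 0.14), EV replicate 3 (0.22), KO replicate 1 (0.294) or KO replicate 2 (0.0729) was left out. The readthrough NDUFC2-KCTD14 alone overlaps 18.6% of the exon bases of NDUFC2.

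NDUFS6 (ENSG00000145494, GRCh38 chr5:1801407-1816048, plus strand), an accessory subunit of the matrix arm that binds zinc, was 80.09, 69.2 and 72.01 CPM in MV4-11 EV and 56.0, 61.2 and 56.8 CPM in MV4-11 KO. The groups did not overlap (log2 fold change −0.35, SE 0.11), and the edgeR adjusted p was 0.0542, just above the threshold. It passed with other size factors (edgeR adjusted p 0.0466), with DESeq2 (adjusted p 0.0378) and with no filter on low counts (edgeR adjusted p 0.0249). It also passed with length and GC offsets, which remove trends on transcript length and GC content in each library (edgeR adjusted p 0.0182). NDUFS6 did not pass with the groups fitted alone or with any replicate left out (log2 fold change −0.392 to −0.2815 over the replicates left out). In Molm-14 the same gene had 100.9, 80.6 and 83.3 CPM in EV and 97.97, 110 and 94.69 CPM in KO, with overlap and a log2 fold change of 0.20. The difference between the 2 effects of NDUFS6 was −0.55 (95% interval −0.85 to −0.24, edgeR adjusted p 0.0643), and it passed under the same 4 settings (edgeR adjusted p 0.0446, 0.00932 and 0.0198, DESeq2 adjusted p 0.0273). With a replicate left out, the difference passed only without Molm-14 EV replicate 1 (edgeR adjusted p 0.0297). NDUFAF7, an assembly factor with methyltransferase activity, was 33.1, 32.5 and 31.5 CPM in MV4-11 EV and 42.0, 43.9 and 37.2 CPM in MV4-11 KO (log2 fold change 0.34, edgeR adjusted p 0.0612, and 0.0412 without KO replicate 3). No other setting called NDUFAF7.

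In Molm-14 none of 46 NDUF genes passed, against 2.4% of all genes, and in THP-1 none passed, against 0.0897%, and DESeq2 called 0 in both lines. At an unadjusted edgeR p under 0.05 there were 8 NDUF genes in MV4-11 (17.4%, against 22.3% of all genes), 1 in Molm-14 (2.17% against 10.7%) and 5 in THP-1 (10.9% against 8.01%). NDUFB3, of the distal membrane arm, had the smallest p in Molm-14, with 62.7, 57.4 and 61.3 CPM in EV and 72.6, 73.3 and 71.3 CPM in KO (log2 fold change 0.26, edgeR adjusted p 0.334). It was followed by NDUFS6 and NDUFS1, the latter with a log2 fold change of 0.12. In THP-1, NDUFA12, an accessory subunit that takes the place of an assembly factor late in assembly, had 67.6, 65.3 and 48.7 CPM in EV and 90.1, 78.3 and 70.9 CPM in KO (log2 fold change 0.39, edgeR adjusted p 0.385). With the replicate number as a block NDUFA12 did not pass, and with the block and length and GC offsets together it did (0.34, edgeR adjusted p 0.0276). NDUFA13, also known as GRIM-19, had 36.4, 34.7 and 33.9 CPM in EV and 45.8, 42.3 and 50.3 CPM in KO (0.39, edgeR adjusted p 0.499), and NDUFS4 had a log2 fold change of 0.25. In THP-1 none of these 3 genes, chosen by their small p, overlapped between EV and KO. The share of all genes without overlap was not counted.

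Over the 36 tested subunits the median difference was 0.05 (MV4-11), 0.07 (Molm-14) and 0.10 (THP-1) on the log2 scale, with 21, 31 and 28 of them higher in KO. Over all genes the medians were 0.02, 0.00 and 0.00, and 52.1%, 48.4% and 50.7% were higher in KO. Leaving out 1 library moved the subunit medians to −0.046 to 0.146, 0.005 to 0.134 and 0.045 to 0.158. The lowest and highest MV4-11 values came from omitting EV replicate 2 and EV replicate 1. The 8 assembly factors had medians of 0.09, 0.10 and 0.09. The 95% interval lay within a 1.5-fold change for 35 subunits in MV4-11, 35 in Molm-14 and 32 in THP-1. Small shifts of short transcripts went the same way. Cytosolic ribosomal proteins, another group of short mRNAs, had median log2 fold changes of 0.10, 0.07 and 0.19 in the 3 lines, and their part in the subunit medians was not tested. NDUFA4 had log2 fold changes of 0.26, 0.10 and 0.19, and NDUFA4L2 of 0.63, 0.24 and −0.33, none of which passed. NDUFA4L2 had 2 to 13 counts in each of the MV4-11 and THP-1 libraries of this series.

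The effects of MPC1 knockout were then compared between lines. No NDUF gene passed in MV4-11 minus Molm-14 (background 1.48% of all genes), MV4-11 minus THP-1 (0.193%) or Molm-14 minus THP-1 (0.766%), with 3, 4 and 1 NDUF genes at an unadjusted edgeR p under 0.05 (6.52%, 8.7% and 2.17%, against 14.2%, 9.05% and 7.8% of all genes). DESeq2 called 1, 0 and 0, the first being NDUFS6. The smallest p-values in the second comparison were those of NDUFA13 (difference −0.52), NDUFA3 (−0.46) and NDUFA8 (−0.35), and in the third those of NDUFS4 (−0.30), NDUFA12 (−0.32) and NDUFAF2 (0.42). Beside NDUFS6, the first comparison named NDUFC2 (0.48) and NDUFAF2 (−0.52), an assembly factor that occupies the site of NDUFA12. These 3 comparisons share libraries.

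Of the 7 complex I genes of the mitochondrial genome, 1 passed in MV4-11 (MT-ND3, log2 fold change −1.62, edgeR adjusted p 0.0195). All 7 had a mean below that of EV there, and the median log2 fold change was −0.66, with their sum at 192.6 to 256.2 CPM in KO and 266.2 to 416.8 CPM in EV. In Molm-14 and THP-1 the medians were −0.12 and −0.29 and none passed. In the EV libraries of each line, the summed level of the 7 genes fell as short genes rose relative to long ones. In MV4-11 the sums were 416.8, 363.1 and 266.2 CPM at shifts of −0.083, 0.071 and 0.317 (log2) in EV. In KO they were 256.2, 192.6 and 199 CPM at 0.032, 0.165 and 0.333. The mean shift was higher in KO than in EV in each line, and its part in the lower sums was not tested. In MV4-11 EV of the overexpression series the sum was 8631 to 12450 CPM. Of the 14 assembly factors with other symbols 1 passed in MV4-11, falling, and none in the other lines, and of 8 tested regulators none passed in any line.

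More NDUF genes differed between the cell lines than between the arms of a line, and the lines were compared on their EV libraries alone. In the knockout series, 29 of 46 NDUF genes differed between Molm-14 and MV4-11 (17 higher and 12 lower in Molm-14), where 61.7% of all genes did (31.6% higher, 30.1% lower). Between THP-1 and MV4-11 27 of 46 differed (3 higher and 24 lower in THP-1), against 67.5% of all genes (34.6% higher, 32.9% lower). Between THP-1 and Molm-14 33 of 46 differed (8 higher, 25 lower), against 69.6% (35.5% higher, 34.1% lower). In the overexpression series 31 of 47 differed between Molm-14 and MV4-11 (18 higher, 13 lower), against 64.8% of all genes (31.9% higher, 32.9% lower). The share of NDUF genes called was near the background in each comparison. In both THP-1 comparisons most of the called NDUF genes were lower in THP-1, where the background was split about evenly.

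The 36 subunits were lower in THP-1 by a median log2 fold change of −0.33 against MV4-11 and −0.27 against Molm-14, with medians over all genes of 0.01 and 0.02. Short genes as a whole were also lower in THP-1. The shift of genes under 1000 bases relative to those of 4000 bases or more was −0.44 to −0.15 (log2) in the THP-1 EV libraries, −0.08 to 0.32 in MV4-11 EV and −0.12 to 0.20 in Molm-14 EV, and ribosomal protein mRNAs had medians of −0.21 and −0.72 in the 2 THP-1 comparisons. Without MV4-11 EV replicate 1 the first subunit median was −0.212. With trends on transcript length and GC content removed in each library, the subunit medians were −0.04 and −0.07, and 17 of 23 and 23 of 37 called NDUF genes were lower in THP-1. Over all genes 5159 of 10138 and 5222 of 10494 called genes were lower. The genes named next by the size of their difference kept their direction and their call with this setting. NDUFB10 in the overexpression series was the exception (edgeR adjusted p 0.116), and its call was also lost without MV4-11 EV replicate 1 (0.0679) or Molm-14 EV replicate 3 (0.0678). Differences of THP-1 from MV4-11 became smaller for NDUFS7 (−0.33), NDUFA13 (−0.34) and NDUFA3 (−0.48), and larger for NDUFA9 (−1.44) and NDUFAF5 (−1.71). Those of Molm-14 from MV4-11 became smaller for NDUFAF8 (−0.38) and NDUFB10 (−0.39) in the knockout series and NDUFS8 (−0.18) in the overexpression series.

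Sorted by the 3 comparisons, 13 of the 36 subunits (36.1%) were lower in THP-1 than in both other lines, as were 20.3% of all tested genes. With length and GC offsets these numbers were 8 of 36 (22.2%) and 22.5%, so the share of subunits was then near the background. The 13 included the core subunits NDUFS1, NDUFV1 and NDUFS7. NDUFC1, of the proximal membrane arm, was the only subunit called higher in THP-1 than in both other lines (2.78%, against 22.7% of all tested genes). With these offsets there were 3 (8.33% against 23%). Another 6 (NDUFA3, NDUFA8, NDUFB10, NDUFC2, NDUFS8 and NDUFV3) were higher in MV4-11 than in both others, and 5 (NDUFA5, NDUFAB1, NDUFB4, NDUFS3 and NDUFS4) were higher in Molm-14 than in both others. For 6 subunits no pair of lines passed the test (NDUFA11, NDUFB3, NDUFB5, NDUFB6, NDUFB11 and NDUFV2), which does not show that they were equal. NDUFA11 had log2 fold changes of −0.36 and −0.39 in the THP-1 comparisons. The shares of all genes highest in MV4-11, highest in Molm-14 or called in no pair of lines were not counted.

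NDUFA9 had 27.4, 24.1 and 21.9 CPM in MV4-11 EV, 43.7, 37.6 and 35.2 CPM in Molm-14 EV, and 12.77, 11.96 and 13.41 CPM in THP-1 EV, in the knockout series. The 3 lines did not overlap, and NDUFA9 was lower in THP-1 than in Molm-14 by a log2 fold change of −1.61 (SE 0.13, edgeR adjusted p 1.51e-11), the largest difference of a subunit in that comparison. It was also lower than in MV4-11 (−0.95) and higher in Molm-14 than in MV4-11 (0.66). NDUFB8, of the distal membrane arm, was 28.8, 21.3 and 29.0 CPM in MV4-11 EV, 45.4, 35.6 and 34.8 CPM in Molm-14 EV and 17.16, 14.95 and 14.5 CPM in THP-1 EV, and its log2 fold change between THP-1 and Molm-14 was −1.30. NDUFS7, the core subunit that carries the last iron-sulfur cluster before ubiquinone, was lower in THP-1 than in MV4-11 by −1.03 (SE 0.12), and NDUFA13 by −0.95. A noncoding gene on the other strand overlaps 36.1% of the exon bases of NDUFS7.

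NDUFC1 went the other way. It had 44.57, 30.02 and 33 CPM in MV4-11 EV, 67.9, 53.5 and 55.5 CPM in Molm-14 EV and 95.1, 90.8 and 77.9 CPM in THP-1 EV. The lines did not overlap, and THP-1 was above MV4-11 by a log2 fold change of 1.29 (SE 0.12, edgeR adjusted p 2.39e-10) and above Molm-14 by 0.58. NAA15, a gene on the other strand, overlaps 19.5% of the exon bases of NDUFC1. NDUFA3, an accessory subunit of the proximal membrane arm, was highest in MV4-11 EV (80.7, 68.1 and 78.3 CPM), and was lower in Molm-14 (42.0, 33.8 and 30.2 CPM) and THP-1 (45.0, 39.9 and 42.2 CPM), with log2 fold changes of −1.11 and −0.84 against MV4-11. Its neighbours in this order, Molm-14 and THP-1, did not pass the test (0.27). NDUFC2, NDUFV3 and NDUFB10 were also lower in Molm-14 than in MV4-11, by −0.77, −0.61 and −0.64. NDUFB10 was higher in THP-1 than in Molm-14 by 0.29, NDUFA6 by 0.38 and NDUFA1 by 0.35. The NDUFB10 call was lost without Molm-14 EV replicate 2 (edgeR adjusted p 0.0639) or THP-1 EV replicate 1 (0.104), and the NDUFA1 call without replicate 2 or 3 of Molm-14 EV or replicate 1 or 2 of THP-1 EV (0.0815 to 0.106). NDUFA6 and NDUFA1 are accessory subunits that differed in none of the other comparisons of the knockout series.

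NDUFB11 did not pass the test between any pair of lines. It had 98.4, 80.6 and 85.7 CPM in MV4-11 EV, 97.2, 81.4 and 91.8 CPM in Molm-14 EV and 100.7, 95.8 and 80.3 CPM in THP-1 EV. The 3 ranges overlapped. Its log2 fold changes were 0.03, 0.07 and 0.04 in the 3 comparisons of the knockout series.

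Of the 8 assembly factors, 7, 6 and 7 were called in Molm-14 against MV4-11, THP-1 against MV4-11 and THP-1 against Molm-14, where 61.7%, 67.5% and 69.6% of all genes were. Each was called in at least 1 of these comparisons, and single differences ranged from 0.0075 (NDUFAF6, Molm-14 against MV4-11) to −1.74 (NDUFAF5, THP-1 against Molm-14). NDUFAF1, NDUFAF5, NDUFAF6 and NDUFAF7 were lower in THP-1 than in both other lines (50%, against 20.3% of all genes). With length and GC offsets the count was again 4 of 8, against 22.5% of all genes. NDUFAF3 was higher in THP-1 than in both others (12.5%, against 22.7% of all genes). NDUFAF2 and NDUFAF4 were higher in Molm-14 than in both others, and NDUFAF8 was higher in MV4-11, where shares of all genes were not counted. NDUFAF4, which acts with NDUFAF3 on the early quinone module, had 43.3, 34.6 and 36.4 CPM in MV4-11 EV, 100.2, 77.1 and 99.6 CPM in Molm-14 EV and 46.4, 45.2 and 35.5 CPM in THP-1 EV. It was higher in Molm-14 than in MV4-11 by a log2 fold change of 1.27 (SE 0.13, edgeR adjusted p 4.39e-09). Its partner NDUFAF3 had 78.7, 73.1 and 78.0 CPM in MV4-11 EV, 63.9, 54.4 and 52.1 CPM in Molm-14 EV, and 122.6, 102.9 and 104.0 CPM in THP-1 EV, so the order of the lines for NDUFAF3 was not that for NDUFAF4. In THP-1 against Molm-14 the log2 fold change was 0.96 for NDUFAF3 and −1.11 for NDUFAF4. NDUFAF5 had 21.9, 20.9 and 20.4 CPM in MV4-11 EV, 23.5, 26.9 and 30.2 CPM in Molm-14 EV and 8.51, 8.82 and 6.70 CPM in THP-1 EV, which were below all libraries of both other lines (log2 fold change −1.38 against MV4-11 and −1.74 against Molm-14, edgeR adjusted p 1.46e-09 and 8.58e-12). NDUFAF8, its partner, was lower in Molm-14 than in MV4-11 by −0.68, and NDUFAF2 was higher by 0.73.

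**Figure D3:**
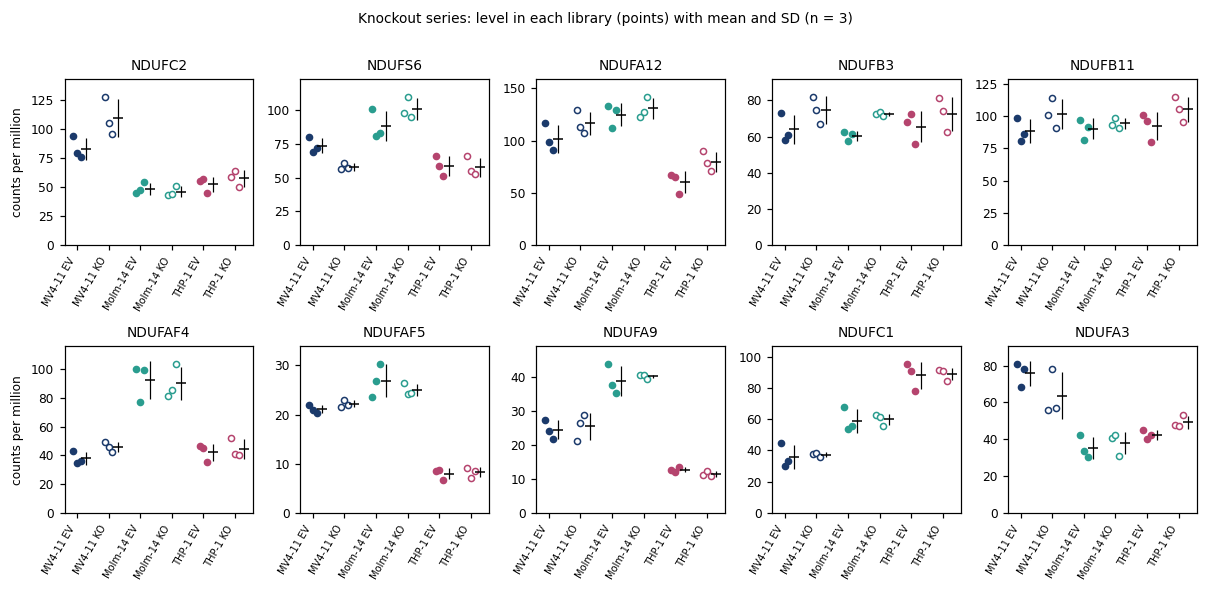
Counts per 1000000 (CPM) of 10 NDUF genes in each of the 18 libraries of the knockout series (filled EV, open KO), with the mean and SD of each group (n = 3). The lines separate for NDUFA9, NDUFAF5 and NDUFC1 and not for NDUFB11, and EV and KO separate within MV4-11 for NDUFC2 and NDUFS6.

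NDUFA4 differed less between the lines than most of these genes. Its log2 fold change was −0.14 (Molm-14) and 0.10 (THP-1) against MV4-11 in the knockout series, neither of which passed, and 0.24 between THP-1 and Molm-14 (edgeR adjusted p 0.0328). The last call was lost without Molm-14 EV replicate 2 (0.197), THP-1 EV replicate 1 (0.152) or THP-1 EV replicate 2 (0.115). With length and GC offsets NDUFA4 passed in Molm-14 against MV4-11, at −0.29 (edgeR adjusted p 0.000925). NDUFA4L2, whose product is known from hypoxic cells, had 5, 3 and 2 counts in MV4-11 EV, 31, 42 and 34 in Molm-14 EV and 13, 8 and 5 in THP-1 EV. All Molm-14 libraries were above the others, and the fitted log2 fold change against MV4-11 was 3.38 (SE 0.34), a value that rests on the few counts of the MV4-11 libraries.

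Molm-14 and MV4-11 carried a different EV in each of the 2 series, so the comparison of these lines was made on separate libraries in each. Of the 46 NDUF genes tested in both series, 31 were called with the overexpression libraries and 29 with the knockout libraries. There were 25 called in both (80.6% and 86.2% of the 2 lists), all 25 in the same direction. For all genes tested in both, these shares were 76.2% and 84.2%, and 7176 of 7341 genes called in both had the same direction. The largest differences of the overexpression series included NDUFAF4 (0.92), NDUFA9 (0.74), NDUFC1 (0.70) and NDUFB8 (0.67) on the higher side in Molm-14, and NDUFA3 (−0.82), NDUFV3 (−0.81), NDUFC2 (−0.78), NDUFB10 (−0.59) and NDUFS8 (−0.54) on the lower side. NDUFA4L2 was higher by 1.52 and NDUFA4 lower by −0.17. Over all 46 genes 84.8% had the same sign in both series, against 84.5% of 13627 genes tested in both, so the NDUF genes repeated about as often as genes in general.

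**Figure D4:**
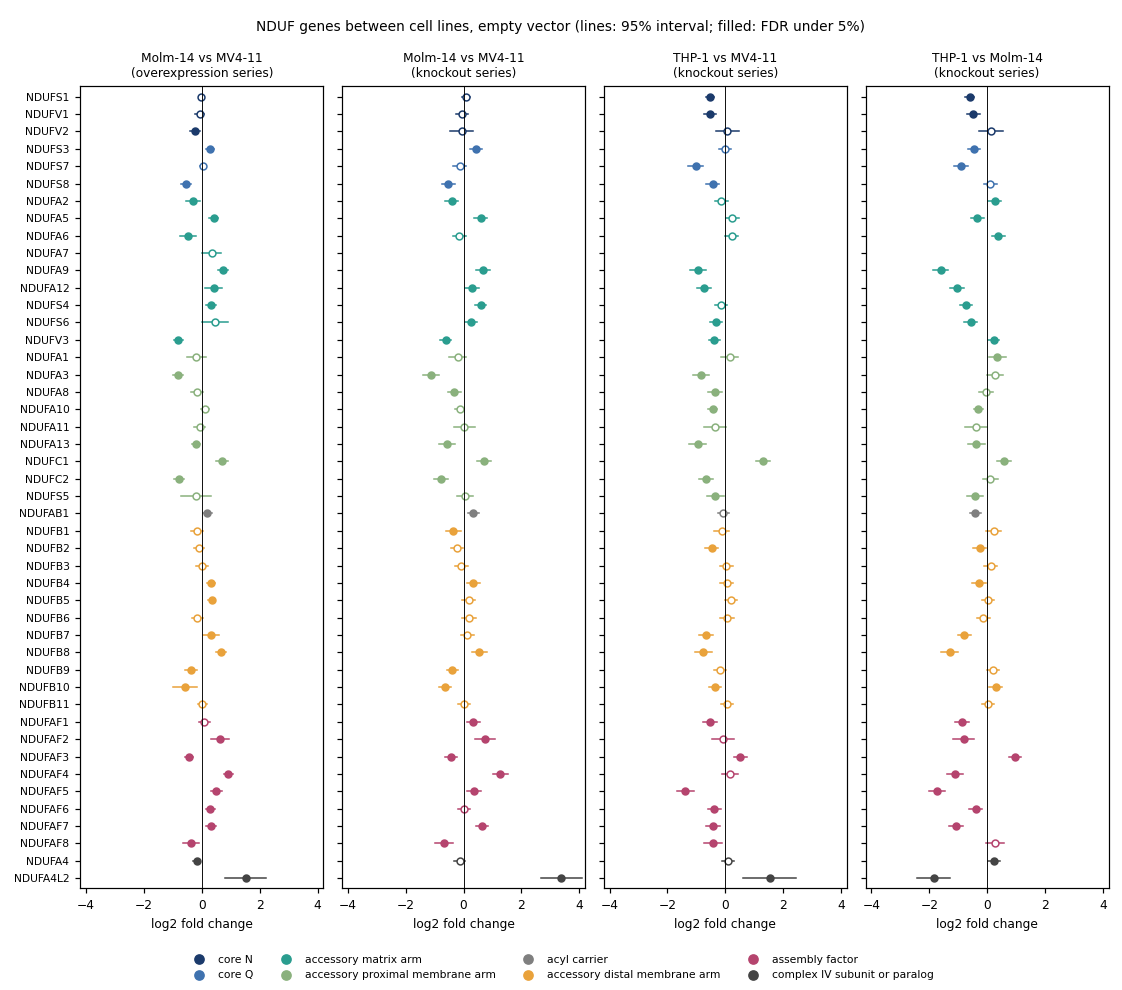
Log2 fold change of the tested NDUF genes (all but 1) between lines carrying EV, with the 95% interval, for Molm-14 against MV4-11 in both series and for THP-1 against each of the other lines. Filled points passed FDR 5%. Most filled points of the THP-1 comparisons lie left of 0, while those of Molm-14 against MV4-11 lie on both sides.

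Within groups, the subunits varied together from library to library. The deviations of each library from the mean of its group had a median pairwise correlation of 0.56 among the subunits of the knockout series (630 pairs, 18 libraries) and 0.52 in the overexpression series (666 pairs, 12 libraries), and of 0.10 and 0.16 among the assembly factors. The mean deviation of the subunits followed the shift of short against long genes in the same library, with a Pearson correlation of 0.97 (Spearman 0.97) in the knockout series and 0.90 (0.87) in the overexpression series. Without the 2 libraries with the most extreme shift the Pearson values were 0.96 and 0.75. The mean of the assembly factors followed the shift too, with Pearson correlations of 0.85 and 0.71 (Spearman 0.91 and 0.57). Without those 2 libraries its Pearson values were 0.82 and 0.20. The subunit mean also followed the summed ribosomal protein mRNAs, with correlations of 0.97 and 0.83. These are descriptions, since all genes of a library share its depth and scaling. In the knockout series the members that followed the other subunits most closely were NDUFB11 and NDUFC1 (both 0.94), and NDUFA8 (−0.49) and NDUFV2 (−0.19) did not follow them. In the overexpression series NDUFB11 and NDUFC1 had 0.723 and 0.755, and NDUFA8 and NDUFV2 had 0.359 and 0.397.

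**Figure D5:**
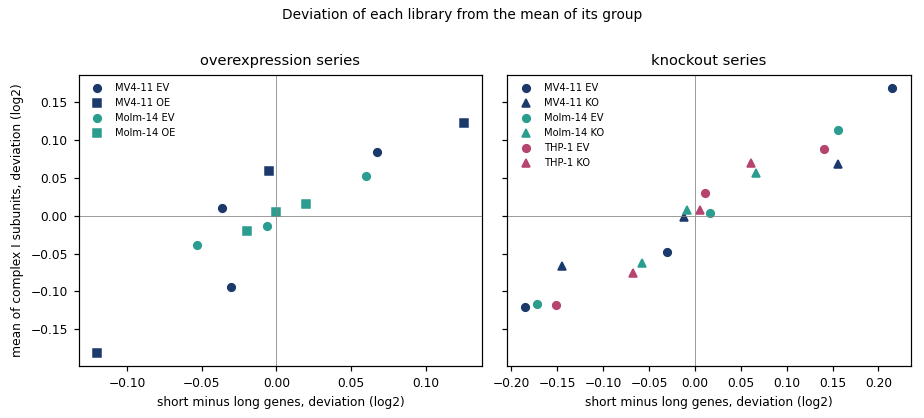
Deviation of the mean log2 level of the complex I subunits from its group mean (vertical) against the deviation of the short-minus-long gene shift (horizontal), 1 point per library, colored by line and shaped by arm. The points rise together in both series, with Pearson correlations of 0.97 over 18 libraries and 0.90 over 12.

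The promoter windows of the NDUF genes (250 bases before to 50 after the start, RefSeq, GRCh38.p14) were searched on both strands for 4 motifs. Windows were found for 40 of the 48 genes. The core of the motif of NRF1, a known activator of respiratory chain genes (GCATGCGC), was in 7 of 40 windows (17.5%) and in 4.25% of 15345 protein-coding promoters. The YY1 core (AAGATGGCG) was in 5 (12.5% against 2.8%), the ETS core bound by GABPA (CCGGAAGT) in 2 (5.0% against 6.32%) and the GC box (GGGCGG) in 23 (57.5% against 59.2%). The windows with the NRF1 core were those of NDUFA6, NDUFA8, NDUFB4, NDUFS6, NDUFS7, NDUFAF4 and NDUFAF5, which did not share 1 order of the lines. Stretches upstream of the start that no annotated exon covers are shown for NDUFB4, where the NRF1 core occurs on both strands in a palindrome, and for NDUFC1, the subunit that was higher in THP-1. Motif letters are in capitals, and each is on GRCh38.
NDUFB4 (chr3:120596086-120596327, + strand): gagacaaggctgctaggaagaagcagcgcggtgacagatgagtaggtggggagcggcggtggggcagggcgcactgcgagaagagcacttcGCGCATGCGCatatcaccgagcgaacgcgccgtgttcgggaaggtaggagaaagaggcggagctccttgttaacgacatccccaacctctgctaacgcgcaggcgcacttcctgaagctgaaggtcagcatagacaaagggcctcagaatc
NDUFC1 (chr4:139302552-139302801, − strand): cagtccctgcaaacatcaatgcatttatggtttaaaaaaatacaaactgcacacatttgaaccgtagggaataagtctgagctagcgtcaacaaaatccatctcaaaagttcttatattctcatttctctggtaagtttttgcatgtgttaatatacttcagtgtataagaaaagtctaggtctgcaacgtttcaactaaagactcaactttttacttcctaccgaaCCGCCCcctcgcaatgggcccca
The NDUFC1 stretch held a GC box on the other strand near the start and none of the other 3 motifs.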

How the data were processed

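Total RNA of 30 cell line libraries had been sequenced after ribosomal RNA depletion with a stranded kit. The deposited values are gene counts that the authors made with cutadapt 1.16, STAR 2.7.6a and featureCounts 1.6.3 on GRCh38 (per the submitters' processing notes, which also name DESeq2 1.30.1). The strand setting of the counting is not given in the sources used here, so overlapping genes may share counts. Groups came from the labels.

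Counts as deposited were tested with the quasi-likelihood test of edgeR 4.0.16 (R 4.3.3, TMM scaling, filterByExpr, robust fit), with 1 model for each series and Benjamini-Hochberg adjustment over all tested genes. A call is an FDR under 5%, tests are two-sided, and fold changes are log2 values with 95% intervals. CPM are counts per 1000000 of a library size, which is the sum over the genes kept by the filter, scaled by TMM. RPKM use these CPM and the canonical transcript length of GENCODE 44. DESeq2 1.42.0, other size factors, no filter, length and GC offsets, a replicate block, groups fitted alone and leaving out each replicate were alternatives. The scripts were tested on simulated data. Counts and medians cover all members, and the values of 1 member are not reported here. Members and gene lists were chosen with earlier results of these data known. Named genes were the called members, or the 5 largest rises and falls where more than 10 were called, and the 3 smallest p-values where fewer than 3 were called; further members are described as groups or chosen after their values were seen.

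Same-numbered libraries deviated together in all 3 pairs for THP-1 KO against EV (correlations 0.385, 0.301 and 0.619). They also did for THP-1 EV against MV4-11 EV (0.547, 0.107 and 0.347), a hint from the data and not from the labels. Every other comparison held a negative correlation, such as −0.409, 0.038 and −0.712 for MV4-11 OE against EV. THP-1 KO replicate 1 was closer to an EV library of another number. Replicate libraries differed by more than sampling noise, so each was counted as 1 sample.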

Additional observations from a re-analysis of the deposited data

How the results depend on the processing

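Counts of called NDUF genes stayed within 1.5 times the reported count in 170 of 193 refits, and the other 23 concerned MPC1 knockout. In MV4-11 the count was 2 with other size factors, with DESeq2, with no filter and with length and GC offsets, 3 with the replicate block, 5 with the replicate block and offsets, and 0 with the groups fitted alone. It ranged from 0 to 5 when a replicate was left out, and the 5 genes called without MV4-11 EV replicate 1 were NDUFA2, NDUFA8, NDUFB1, NDUFB6 and NDUFC2. All genes gave 784 calls as reported and 746 to 1084 under the settings with 2 NDUF calls. They gave 1474 with the block, 1620 with block and offsets, 356 with the groups fitted alone and 133 to 1400 without a replicate. The 1400 were without EV replicate 1. With the replicate block and offsets together the NDUF count was 1 in Molm-14 (NDUFB3) and 1 in THP-1 (NDUFA12). All genes then gave 556 and 60 calls, against 348 and 13 as reported. The difference between the MV4-11 and Molm-14 effects gave 1 call (NDUFS6) with other size factors, DESeq2, no filter, offsets or the groups fitted alone, 2 with the replicate block with or without offsets (NDUFS6 and NDUFC2), and 0 to 1 when a replicate was left out. Over all genes this difference gave 215 calls as reported, 388 with the block and 589 with the block and offsets. The cause of these changes was not tested. The block moved no other count by more than 1.5 times.

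Between lines, leaving out a replicate gave, for Molm-14 against MV4-11, 26 to 28 calls with the overexpression libraries and 26 to 30 with the knockout libraries, 27 to 30 for THP-1 against MV4-11 and 27 to 32 for THP-1 against Molm-14. Over all genes these ranges were 10735 to 11097, 8252 to 8599, 9258 to 9602 and 9632 to 9888. With other size factors the THP-1 comparisons gave 6 higher and 23 lower, and 10 higher and 22 lower. Over all genes there were 5261 higher and 4453 lower, and 5476 higher and 4574 lower, with these factors.

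Of 1211 refits of named genes 14 changed sign, none of them called. NDUFA4L2 became −0.0737, −0.0208, −0.0129 and −0.2144 in MV4-11 OE without OE replicate 1, OE replicate 2, EV replicate 1 or EV replicate 2. Its range over the replicates left out was −0.2144 to 0.7061 there, −0.1444 to 0.0458 in Molm-14 OE and −0.1968 to 0.7235 in the difference of the OE effects. It became 0.0458, 0.0394 and 0.0274 in Molm-14 OE without OE replicates 1 or 3 or EV replicate 3, and −0.0554, −0.0033 and −0.1968 in that difference. NDUFA4 became 0.0044 in Molm-14 OE without OE replicate 1 (range −0.0668 to 0.0044), and in MV4-11 minus THP-1 it became −0.0233 with offsets, −0.0229 with the replicate block and offsets and −0.006 without THP-1 KO replicate 3 (range −0.006 to 0.1545). The subunit medians moved by more than the spread between libraries in 8 refits. In Molm-14 against MV4-11 (knockout series) the median was −0.134 without MV4-11 EV replicate 2, and in THP-1 against Molm-14 it was −0.368 without Molm-14 EV replicate 2. The others are the values given above for MV4-11 KO without EV replicate 1, for THP-1 against MV4-11 without that library, and for both THP-1 comparisons with offsets, with or without the block. After MPC1 knockout 43, 44 and 40 of 46 NDUF genes had an interval within 1.5-fold in MV4-11, Molm-14 and THP-1.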
